A study of Homo sapiens with 4 samples.

Results

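Newly made secretory proteins pass through a series of machines, and 55 genes that encode them are described here by their RNA levels after depletion of ILF2. They were taken from a list of named subunits of the signal recognition particle and its receptor, the translocon, signal peptidase, the oligosaccharyltransferase, the COPII and COPI coats and the cargo receptors between the endoplasmic reticulum (ER) and the Golgi. All 55 were found by Ensembl identifier among the 63677 genes counted. The cells were H929, an established human multiple myeloma line, a tumour of antibody-secreting plasma cells. They were transduced with a short hairpin RNA (shRNA) that silences no gene, called non-silencing here and used as the control, or with an shRNA against ILF2, which works in protein complexes on double-stranded RNA. No time after transduction is given in the labels. Each group had 2 libraries of ribosome-depleted total RNA, which the submitters describe as independent replicates. The sources used here do not say whether both ILF2 libraries carry the same hairpin, so an effect of the hairpin and an effect of ILF2 loss cannot be told apart.

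The signal recognition particle, a complex of 7SL RNA and proteins, binds the signal peptide of a nascent chain and docks the ribosome at its receptor on the ER membrane. The chain then enters the SEC61 channel, signal peptidase removes the signal peptide, and the oligosaccharyltransferase adds a preassembled sugar chain to asparagines. COPII coats bud vesicles that carry cargo to the Golgi, and COPI coats bring escaped ER proteins and receptors back. Plasma cells secrete large amounts of antibody, and many of these genes are targets of the transcription factor XBP1, which acts in plasma cells and in the unfolded protein response.

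Promoter sequence is given first, for motifs tied to the unfolded protein response. RefSeq windows of the GRCh38.p14 build, from 250 bases before to 50 bases after a start, were at hand for 47 of the 55 genes. Both strands were searched for TGACGTGG, the core of the unfolded protein response element. It stood in a window of 11 of the 47 genes (23.4%), against 166 of 15843 protein-coding genes (1.05%) and 256 of all 35116 windows (0.729%). The 11 genes were COPA, COPB1, COPB2, KDELR3, SEC16A, SEC23A, SEC24A, SEC62, SRP19, SSR3 and SSR4. The longer ER stress response element (CCAAT, 9 bases of any kind, CCACG) was in none of the 47 genes' windows and in 0.133% of the protein-coding genes. Element II (ATTGG, 1 base of any kind, CCACG) was likewise in none of the 47, against 0.0947%. A match describes these letters in this window only. The 5 shown here are the stretches in which the match and 20 bases on either side end before every listed start of the gene. They are given 5′ to 3′ on the strand of the gene, with the match in capitals (CCACGTCA is the same core read on the other strand). SRP19 and SEC24A both rose after ILF2 depletion, while COPB1, COPB2 and KDELR3 did not pass the test.
SRP19: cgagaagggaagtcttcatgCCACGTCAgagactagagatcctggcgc
SEC24A: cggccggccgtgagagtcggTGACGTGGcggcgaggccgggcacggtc
COPB1: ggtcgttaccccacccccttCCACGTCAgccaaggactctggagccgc
COPB2: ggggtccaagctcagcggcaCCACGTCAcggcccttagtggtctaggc
KDELR3: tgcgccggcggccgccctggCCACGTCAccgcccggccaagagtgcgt

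In GRCh38.p14 these stretches lie at chr5:112861155-112861202 on the plus strand for SRP19 and chr5:134648586-134648633 on the plus strand for SEC24A. The COPB1 stretch lies at chr11:14499832-14499879 on the minus strand. The COPB2 stretch lies at chr3:139389816-139389863 on the minus strand, and that of KDELR3 at chr22:38468030-38468077 on the plus strand. COPB2 has a pair of listed starts, and its windows hold a further match near them that is not shown. The match shown began 112 bases before the start in SRP19, 179 in SEC24A, 48 in COPB1, 163 in COPB2 and 46 in KDELR3.

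The libraries held 63459322 to 72977082 counted fragments. ILF2 itself was counted in 53115 and 52851 fragments in the controls and in 6821 and 7911 under ILF2 shRNA. In CPM (counts scaled to the TMM-adjusted library size) this was 717 and 733 against 107 and 114, a log2 fold change of -2.71 with SE 0.07 (edgeR, adjusted p = 9.2e-39). Plasma cell markers were abundant in all libraries, with a summed level of 12324 to 12630 CPM in the non-silencing and 14573 to 14690 CPM in the ILF2 shRNA libraries. Of these 8 markers, JCHAIN, MZB1, CD38 and TNFRSF17 rose, SDC1 fell, and PRDM1, IRF4 and XBP1 were not called (XBP1 had a log2 fold change of -0.01). B cell, monocyte and fibroblast markers each summed to at most 0.763 CPM. T cell markers summed to 7.52 to 8.26 CPM without and 16.1 to 17.0 CPM with ILF2 shRNA, nearly all of it CD3E, while CD3D and CD2 had at most 2 fragments in a library. Epithelial markers summed to 24.0 to 24.9 and 30.0 to 30.4 CPM, mostly KRT18, with EPCAM at 0 in all libraries. The mitochondrial share of fragments was 0.307% and 0.351% in the controls and 0.463% and 0.516% under ILF2 shRNA. The part of these differences in the results below was not tested. In bulk RNA, fewer cells of a type and less RNA per cell cannot be told apart.

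The secretory genes were among the more abundant transcripts of H929. Scaled by exon length (FPKM, from TMM-adjusted library sizes), their median over the 4 libraries was 57.9, against 2.48 over all 19142 genes tested and 4.47 over the protein-coding ones. The oligosaccharyltransferase subunits had the highest median of the 7 groups, 208 FPKM, and the COPII genes the lowest, 13.5 FPKM. RPN2 led all members at 351 FPKM, followed by DDOST at 230, DAD1 at 226 and TRAM1 at 210. The lowest was KDELR3, a receptor that returns ER proteins, at 0.561 FPKM. Together the 55 genes took 1.75% and 1.76% of all fragments in the controls and 1.81% and 1.76% under ILF2 shRNA, a small share that moved little.

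**Figure D1:**
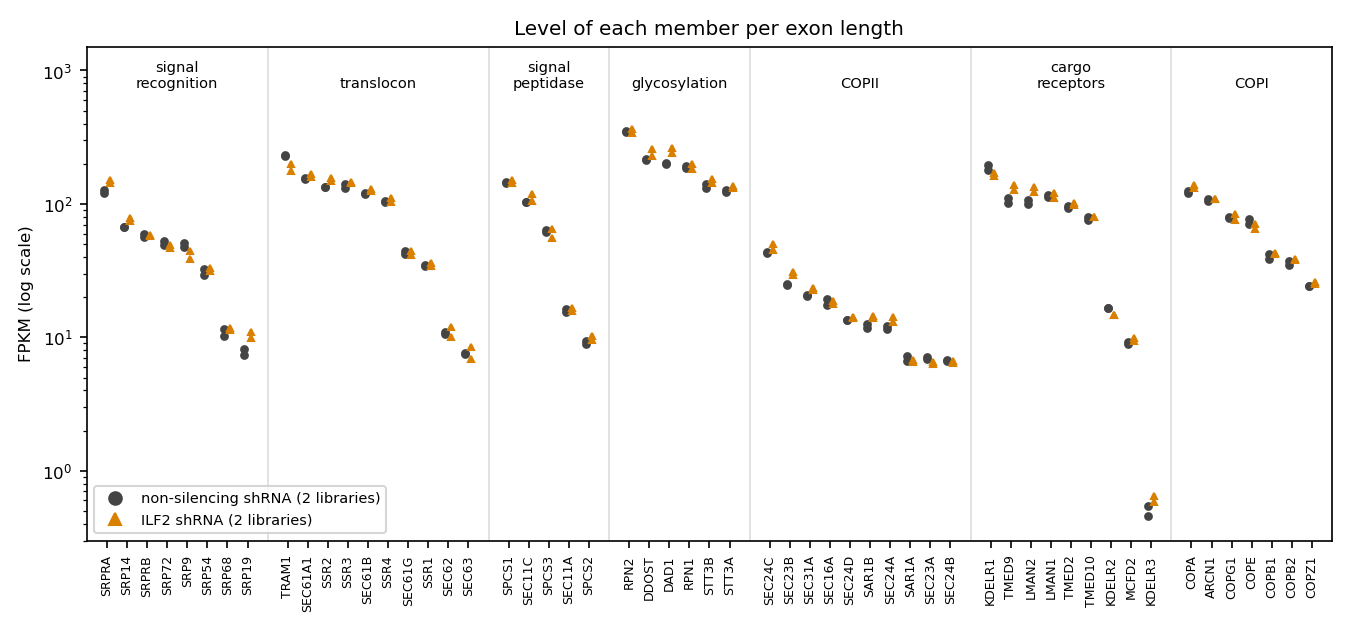
Level of each gene in FPKM (fragments per exon length and library size, log axis) in the 4 libraries, grouped by role, with non-silencing and ILF2 shRNA libraries as separate points. RPN2 stands highest at 351 FPKM and KDELR3 lowest at 0.561, and for most genes the points of the groups lie close together.

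Between the groups, most secretory genes moved little. All 55 passed the filter on low counts, and edgeR's quasi-likelihood test with Benjamini-Hochberg adjustment over all genes called 11 higher (20%) and 2 lower (3.64%) in the ILF2 shRNA libraries at an adjusted p under 0.05. Over all 19142 genes tested, 20.3% were called, 10.2% higher and 10.1% lower. Over the protein-coding genes tested, 12.4% were called higher and 12.3% lower. Without adjustment, 14 of the 55 members were higher and 4 lower at p under 0.05, beside 2971 and 2953 of all 19142 genes tested. The log2 fold changes ran from -0.31 to 0.41 with a median of 0.07, and 42 of 55 were above 0, whereas the median over all genes tested was -0.00. Both ILF2 shRNA libraries lay above both non-silencing libraries for 29 of the 55 members and below them for 5 of the 55. Over all genes tested it was 5451 and 5367 of 19142 (28.5% and 28.0%). The genes called higher were SRP19, DAD1, TMED9, LMAN2, SEC23B, SRPRA, SAR1B, SEC24A, SRP14, DDOST and SSR2, and those called lower were SRP9 and TRAM1. Leaving out a single control library shortened these lists, and the members called higher lost a larger part than the list over all genes. Without non-silencing replicate 2 the share of members called higher was below that of all genes. With the replicate number as a block, 6 of the 55 members were higher and 1 of the 55 lower. Over all genes tested it was 1291 and 1297 of 19142 (6.74% and 6.78%).

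**Figure D2:**
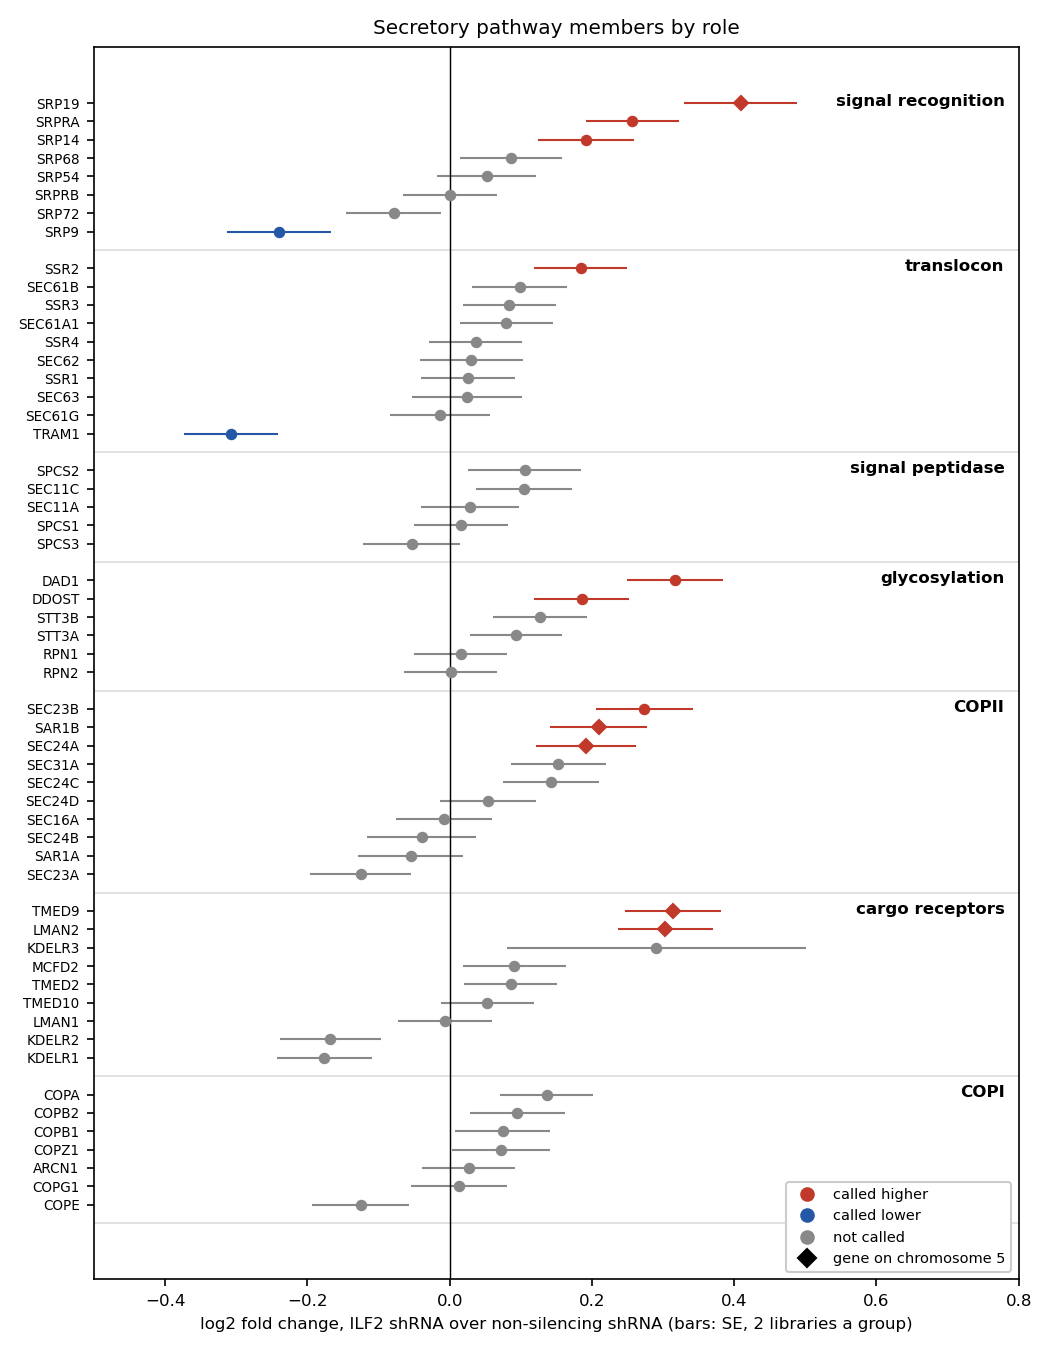
Log2 fold change (ILF2 shRNA over non-silencing) of each of the 55 genes with its SE, arranged by role, with called genes marked. Values run from -0.31 for TRAM1 to 0.41 for SRP19, and most lie between 0 and 0.2.

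The signal recognition genes split. SRP19, SRPRA and SRP14 rose and SRP9 fell, while SRP54, SRP68, SRP72 and SRPRB were not called (3 higher and 1 lower of 8, median log2 fold change 0.07). SRP19, a protein that binds 7SL RNA and helps SRP54 to join the particle, had 1967 and 2136 fragments in the non-silencing and 2499 and 2451 in the ILF2 shRNA libraries. In CPM this was 26.6 and 29.6 against 39.2 and 35.4, with no overlap, and its log2 fold change of 0.41 with SE 0.08 (edgeR, adjusted p = 7.3e-05) was the largest among the 55 genes. SRP19 lies at chr5:112196919-112205485 (GRCh37, plus strand), is the gene whose promoter stretch opens the sequences above, and shares 20.2% of its exon bases with another gene on the same strand. SRPRA, the subunit of the receptor that meets the particle, was counted in 39205 and 36081 fragments against 38393 and 43465, or 529 and 501 against 602 and 628 CPM. Its log2 fold change was 0.26 (SE 0.07, adjusted p = 0.0026), and the groups did not overlap. Its membrane-anchored partner SRPRB had 237 and 247 against 243 and 242 CPM, a log2 fold change of 0.00 (SE 0.07).

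SRP9 and SRP14 form the heterodimer that slows elongation, and they moved in opposite directions. SRP14 (chr15:40327940-40331389) had 9919 and 9706 fragments against 9593 and 10809, or 134 and 135 against 151 and 156 CPM, a log2 fold change of 0.19 with SE 0.07 (edgeR, adjusted p = 0.034). SRP9 (chr1:225965531-225978168) had 6022 and 6289 fragments against 4869 and 4593, or 81.3 and 87.3 against 76.4 and 66.4 CPM, and a log2 fold change of -0.24 (SE 0.07, adjusted p = 0.012). In neither gene did the groups overlap. The ratio of SRP14 to SRP9 in FPKM was 1.41 and 1.32 in the non-silencing and 1.68 and 2.01 in the ILF2 shRNA libraries. SRP14 has 5 and SRP9 has 1 annotated pseudogenes by name, whose reads the counting could split. The 7SL RNA gene RN7SL2, the particle's RNA, was at 22107 and 25646 against 21455 and 27604 CPM, with overlapping groups and a log2 fold change of 0.04 (SE 0.11, adjusted p = 0.858). SRP19 kept its call with any 1 library left out. Without non-silencing replicate 1 the adjusted p was 0.30 for SRP14 and 0.056 for SRPRA, without non-silencing replicate 2 it was 0.30 for SRP9, 0.27 for SRP14 and 0.22 for SRPRA, and without ILF2 shRNA replicate 2 it was 0.24 for SRP9 and 0.13 for SRP14. With the replicate block SRP9 (adjusted p = 0.097) and SRP14 (0.21) were not called, nor was SRP14 with no low-count filter (0.057).

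At the translocon, TRAM1 fell and SSR2 rose, and the other 8 of 10 genes were not called. TRAM1, a membrane protein that contacts chains entering the channel, was counted in 67382 and 64291 fragments in the non-silencing and 48984 and 47582 in the ILF2 shRNA libraries. In CPM it was at 910 and 892 against 769 and 687, a log2 fold change of -0.31 with SE 0.07 (edgeR, adjusted p = 0.00036), the lowest among the 55 genes. Its groups stood well apart, and the adjusted p was 0.053 without non-silencing replicate 1. SSR2, the beta subunit of the translocon-associated protein complex, had 65932 and 64193 fragments against 62546 and 72131. Its CPM was 890 and 891 against 981 and 1042, a log2 fold change of 0.18 (SE 0.07, adjusted p = 0.035). The other subunits of that complex, SSR1, SSR3 and SSR4, had log2 fold changes of 0.03, 0.08 and 0.04 and were not called. The call of SSR2 was lost with no low-count filter (adjusted p = 0.056), with a replicate block (0.18) and without non-silencing replicate 1 (0.33), non-silencing replicate 2 (0.34) or ILF2 shRNA replicate 2 (0.15).

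The channel itself showed no called change. SEC61A1, the pore-forming subunit, had 54670 and 51742 fragments against 47766 and 54607, or 738 and 718 against 749 and 789 CPM. On the log2 scale the fold change was 0.08 with SE 0.07 (edgeR, adjusted p = 0.44), although both ILF2 shRNA libraries lay above both controls. The small subunits SEC61B and SEC61G had log2 fold changes of 0.10 and -0.01. SEC62 and SEC63, which serve chains that enter after translation, had 0.03 and 0.02, with ILF2 shRNA replicate 1 above and replicate 2 below both control libraries in each gene.

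None of the 5 signal peptidase genes was called by edgeR or by DESeq2, and none had an unadjusted p under 0.05. Of all genes tested, edgeR called 20.3%. In 2 of the 5, both ILF2 shRNA libraries lay above both controls. The log2 fold changes ran from -0.05 for SPCS3, a non-catalytic subunit, to 0.11 for SPCS2. SPCS1, the most abundant per exon length (146 FPKM), had 25126 and 24565 fragments against 22417 and 23248, or 339 and 341 against 352 and 336 CPM, and its groups overlapped. The catalytic subunit SEC11C had 28128 and 27462 fragments against 27693 and 26543, or 380 and 381 against 435 and 383 CPM. Its log2 fold change was 0.10 (SE 0.07, adjusted p = 0.30), and it was called higher when ILF2 shRNA replicate 2 was left out. SEC11A, the alternative catalytic subunit, stayed at 89.3 and 92.9 against 95.3 and 90.5 CPM.

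Among the oligosaccharyltransferase genes DAD1 and DDOST rose and 4 of 6 were not called, with a median log2 fold change of 0.11 and none below 0. DAD1, a small subunit of the complex named for a role in defence against cell death, was counted in 11990 and 11776 fragments in the non-silencing and 12400 and 14575 in the ILF2 shRNA libraries. In CPM it went from 162 and 163 to 195 and 211, a log2 fold change of 0.32 with SE 0.07 (edgeR, adjusted p = 0.00028). DAD1 (chr14:23033805-23058175, minus strand) kept its call with each library left out in turn and under the replicate block. DDOST, another non-catalytic subunit, had 43065 and 40946 fragments against 39214 and 47905, or 581 and 568 against 615 and 692 CPM. The fitted log2 fold change was 0.19 (SE 0.07, adjusted p = 0.039), and 15.6% of its exon bases are shared with another gene on the same strand. RPN2, the most abundant of the 55, had 72738 and 71648 fragments against 60936 and 70725, or 982 and 994 against 956 and 1022 CPM, with overlapping groups and a log2 fold change of 0.00. The catalytic subunits STT3A and STT3B had log2 fold changes of 0.09 and 0.13, and RPN1 had 0.02. The call of DDOST was lost in DESeq2 (adjusted p = 0.055), with upper-quartile factors (0.052), with no low-count filter (0.055), with a replicate block (0.19), and without non-silencing replicate 1 (0.26), non-silencing replicate 2 (0.39) or ILF2 shRNA replicate 2 (0.38).

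In the COPII coat SEC23B, SAR1B and SEC24A rose, none fell, and 7 of 10 genes were not called. SAR1B and SEC24A lie on chromosome 5, which is described below. SEC23B, an inner-coat protein that stimulates GTP hydrolysis by SAR1, had 7506 and 7145 fragments against 7494 and 8635. In CPM this was 101 and 99.1 against 118 and 125, a log2 fold change of 0.27 with SE 0.07 (edgeR, adjusted p = 0.0021), with no overlap. Its paralog SEC23A was at 62.1 and 64.3 against 58.9 and 57.0 CPM, a log2 fold change of -0.13 (adjusted p = 0.23). SAR1B, the small GTPase that starts coat assembly, had 9614 and 9969 fragments against 10035 and 10562, or 130 and 138 against 157 and 153 CPM. Its log2 fold change was 0.21 (SE 0.07, adjusted p = 0.020), whereas SAR1A was at 45.9 and 49.8 against 46.6 and 45.5 CPM.

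SEC24 proteins are the cargo-binding subunits, and of the 4 paralogs SEC24A was called. SEC24A had 6200 and 6349 fragments against 6532 and 6486, or 83.7 and 88.1 against 102 and 93.7 CPM, a log2 fold change of 0.19 with SE 0.07 (edgeR, adjusted p = 0.043). SEC24C, the most abundant COPII gene per exon length at 45.1 FPKM, had 17194 and 16439 fragments against 15334 and 18503, or 232 and 228 against 241 and 267 CPM. It had a log2 fold change of 0.14 and was not called (SE 0.07, adjusted p = 0.14). SEC24B and SEC24D had -0.04 and 0.05, and the outer-coat gene SEC31A had 0.15 (adjusted p = 0.098). SEC16A, which marks the sites where vesicles bud, had -0.01. Without non-silencing replicate 1 the adjusted p was 0.059 for SEC23B, 0.38 for SAR1B and 0.42 for SEC24A, and without non-silencing replicate 2 it was 0.10, 0.11 and 0.17. Without ILF2 shRNA replicate 1 it was 0.054 for SAR1B and 0.26 for SEC24A, and with the replicate block it was 0.15 and 0.22. SEC24A was also not called by DESeq2 (adjusted p = 0.057), without the filter on low counts (0.065) or when scaled by upper quartiles (0.057).

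**Figure D3:**
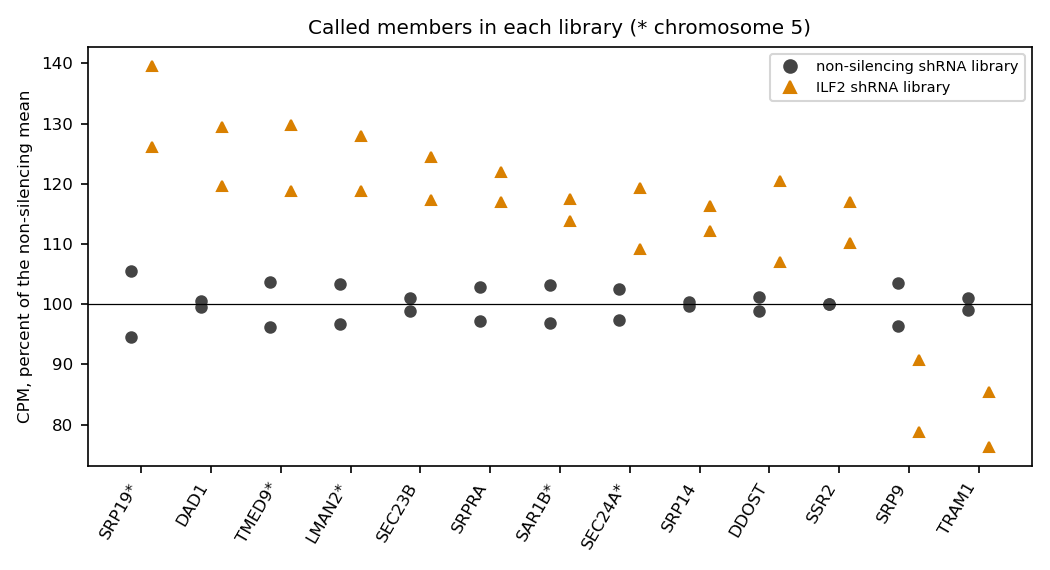
Level of each of the 13 called genes in the 4 libraries, in CPM as a percent of the mean of the non-silencing libraries, with genes on chromosome 5 starred. The 13 were chosen by the test on these same 4 libraries. The points of the groups do not overlap in any of the 13, with 11 genes above and SRP9 and TRAM1 below the control mean.

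Of the 9 cargo receptor genes, TMED9 and LMAN2 rose and 7 were not called. TMED9 and LMAN2 both lie on chromosome 5, which is described below. TMED9, a member of the p24 family that cycles between the ER and the Golgi, had 19969 and 18019 fragments against 19657 and 23346, or 270 and 250 against 308 and 337 CPM. On the log2 scale the fold change was 0.31 with SE 0.07 (edgeR, adjusted p = 0.00032). LMAN2, a lectin that binds high-mannose glycoproteins, had 18788 and 17102 fragments against 18585 and 21749, or 254 and 237 against 292 and 314 CPM, a log2 fold change of 0.30 (SE 0.07, adjusted p = 0.00046). In both genes the groups stood apart. The other p24 genes TMED2 and TMED10 had 0.09 and 0.05, and neither was called. LMAN1 and MCFD2, which together carry clotting factors out of the ER, had -0.01 and 0.09. Without non-silencing replicate 2 the adjusted p was 0.10 for TMED9 and 0.11 for LMAN2.

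KDEL receptors return ER chaperones from the Golgi, and none of the 3 was called. KDELR1 had 32522 and 29253 fragments against 23288 and 26467, or 439 and 406 against 365 and 382 CPM. It lay just outside the threshold, with a log2 fold change of -0.18 with SE 0.07 (edgeR, adjusted p = 0.0503), and was called lower under several alternatives. KDELR2 was at 66.1 and 66.1 against 58.6 and 59.0 CPM, a log2 fold change of -0.17 (SE 0.07, adjusted p = 0.087). In both genes both ILF2 shRNA libraries lay below the controls. KDELR3, whose promoter stretch is shown above, was counted in 66 and 76 fragments against 80 and 78, and its log2 fold change of 0.29 had an SE of 0.21 (adjusted p = 0.37).

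None of the 7 COPI coat genes was called by edgeR or by DESeq2, and 1, COPA, was higher at an unadjusted p under 0.05. COPA, the alpha subunit of the outer coat, had 55920 and 56234 fragments against 52545 and 59707, or 755 and 780 against 824 and 863 CPM. Its log2 fold change was 0.14 (SE 0.07, adjusted p = 0.14), with no overlap between the groups, and it was called higher without ILF2 shRNA replicate 1. ARCN1, the delta subunit, had 32568 and 32647 fragments against 29082 and 31354, or 440 and 453 against 456 and 453 CPM, a log2 fold change of 0.03. COPB1, COPB2, COPG1 and COPZ1 ran from 0.01 to 0.10, and COPE, the epsilon subunit, had -0.13 with overlapping groups. The 2 beta-type subunits COPB1 and COPB2 carry the promoter core shown above and had log2 fold changes of 0.07 and 0.10.

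All 5 members on chromosome 5 were among the 11 genes called higher. They were SRP19, SAR1B (chr5:133936834-133984961, GRCh37, minus strand), SEC24A (chr5:133984479-134063513, plus strand), LMAN2 (chr5:176758563-176778853, minus strand) and TMED9 (chr5:177019159-177023125, plus strand). SAR1B and SEC24A overlap at their starts on opposite strands, and the counting was stranded. Of all 900 tested genes of this chromosome 29.7% were called higher, and their median log2 fold change was 0.15, while the medians of the other chromosomes ran from -0.04 to 0.01. The members exceeded that median by 0.26 for SRP19, 0.17 for TMED9, 0.16 for LMAN2, 0.06 for SAR1B and 0.04 for SEC24A. SRP19 stood at percentile 81.4 of the chromosome's genes, TMED9 at 73.3, LMAN2 at 71.7, SAR1B at 58.4 and SEC24A at 55.9. Of the 50 members elsewhere, 6 were called higher (12%) and 2 lower (4%), with a median log2 fold change of 0.05. Over all tested genes elsewhere, 9.28% were called higher and 10.4% lower. With chromosome 5 left out of the fit the same 6 were higher and the same 2 lower. By role, COPII genes called higher then numbered 1 instead of 3, and cargo receptors 0 instead of 2. Signal recognition genes called higher numbered 2 instead of 3. The part of the chromosome's shift in the 5 calls was not tested.

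**Figure D4:**
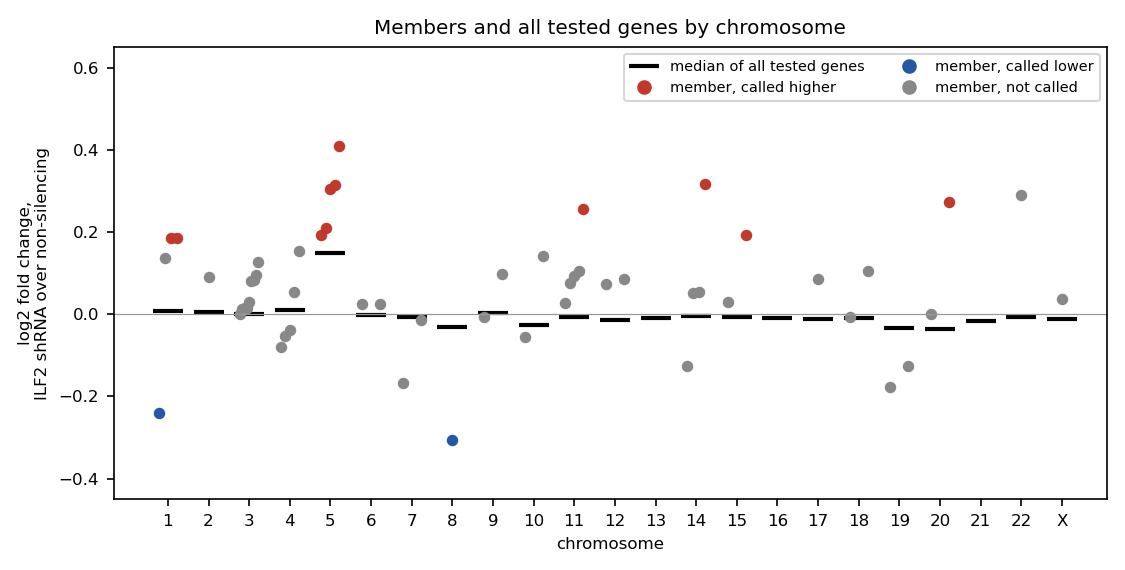
Median log2 fold change (ILF2 shRNA over non-silencing) of all tested genes of each chromosome, with the 55 secretory genes as points on their own chromosome. Chromosome 5 has the highest median, 0.15, and its 5 secretory genes lie at or above 0.19.

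Ratios within a library compare paralogs and partners without the library scaling. SEC23B exceeded SEC23A in FPKM by 3.64 and 3.44 times in the non-silencing and by 4.45 and 4.89 times in the ILF2 shRNA libraries. The ratio of SAR1B to SAR1A was 1.78 and 1.75 against 2.13 and 2.12, and that of SRPRA to SRPRB was 2.24 and 2.03 against 2.49 and 2.61. These 3 ratios did not overlap between groups, although SAR1A has 4 pseudogenes by name whose reads could be split. Among single genes the groups lay apart often, upward in 28.5% and downward in 28.0% of all genes tested. No such share was computed for ratios. The ratios of STT3B to STT3A (1.08 and 1.12 against 1.19 and 1.07), SEC11C to SEC11A (6.68 and 6.44 against 7.16 and 6.65) and KDELR1 to KDELR2 (11.8 and 10.9 against 11.1 and 11.5) overlapped. Among the SEC24 genes, SEC24C exceeded SEC24B by 6.48 and 6.30 against 6.69 and 7.82 times, while its ratios to SEC24A and SEC24D overlapped between groups. These unequal levels are descriptions of 2 libraries a group and were not tested.

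The 11 carriers of the promoter core had a median log2 fold change of 0.08 (-0.13 to 0.41) and the 36 other genes with a window had 0.06 (-0.24 to 0.32). Of the 10 called genes with a window, 2 held the core, SRP19 and SEC24A (both on chromosome 5), and of the 37 uncalled ones 9 did.

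Another 103 tested genes of the same pathway, in 9 lists, held 9 called higher and 7 called lower by edgeR. These are 8.74% and 6.80% of them, against 10.2% and 10.1% of all genes tested. At an unadjusted p under 0.05, 14 of the 103 were higher and 7 lower, beside 2971 and 2953 of all 19142 genes tested. The median log2 fold change of the 103 was 0.02. Among translocon partners (1 higher and 2 lower of 8), SEC61A2, a low-abundance paralog of SEC61A1, fell from 4.43 and 4.39 to 3.14 and 2.69 CPM, a log2 fold change of -0.60 (SE 0.13, adjusted p = 0.00037). NCLN, a subunit of the translocon for multipass proteins, fell by 0.21 on the log2 scale (adjusted p = 0.018), and TMCO1 of the same machinery rose by 0.19 (0.028). In the ER membrane protein complex, which inserts membrane proteins (0 higher and 2 lower of 10), EMC10 fell from 39.0 and 38.9 to 24.7 and 26.7 CPM. Its log2 fold change of -0.60 had an SE of 0.08 and an adjusted p of 1.8e-08, and EMC9 had -0.28 (adjusted p = 0.018). CAMLG, part of the receptor for tail-anchored proteins, was the only one of 7 such genes called, with a log2 fold change of 0.39 (adjusted p = 6.1e-05), and it lies on chromosome 5. None of the 6 other oligosaccharyltransferase genes was called by edgeR, nor was any at an unadjusted p under 0.05.

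Of the 27 genes that build the lipid-linked sugar chain or trim its glucoses, 1 rose and 2 fell. SRD5A3, which makes dolichol, rose from 18.3 and 18.2 to 23.6 and 23.2 CPM, a log2 fold change of 0.36 with SE 0.08 (edgeR, adjusted p = 0.00083). ALG10B, which adds the last glucose, had -0.42 (adjusted p = 0.0010). PREB, the exchange factor that loads SAR1 with GTP, had 0.18 (0.041) and was the only one of 8 other COPII genes called. Of 13 other cargo receptors, TMED7 on chromosome 5 (0.35, adjusted p = 0.00042) and TMED3 (0.19, 0.049) rose and CNIH4 fell (-0.24, 0.028). In TMED7, 24.3% of the exon bases are shared on the same strand. In the COPI and ARF list (2 higher of 10) GBF1, which activates ARF1, had 0.24 (adjusted p = 0.0069). COPZ2 went from 0.202 and 0.222 to 0.377 and 0.477 CPM, and its log2 fold change of 1.01 had an SE of 0.38 (0.049). It was not called with any 1 library left out (adjusted p from 0.057 to 0.30). GOSR2, a Golgi SNARE, rose from 46.7 and 45.3 to 58.7 and 59.5 CPM, with a log2 fold change of 0.36 (SE 0.07, adjusted p = 0.00011). It was the 1 of 14 tethers and SNAREs called, and 16.2% of its exon bases are shared on the same strand. Without non-silencing replicate 1 the called genes of these lists numbered 4 higher and 3 lower, and without replicate 2 they numbered 4 and 4.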

How the data were processed

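Strand-specific, ribosome-depleted total RNA libraries of H929 cells, 2 per group, were read as pairs. The deposited values are unnormalised fragment counts for each gene. The authors obtained them with featureCounts (Subread 1.4.6-p2), stranded, over exons of the Ensembl annotation of GRCh37, per the file headers. Per the submitters' processing notes STAR 2.3.0 was used, while their design text names Tophat2. Fragments of near-identical copies or of genes overlapping on 1 strand may be missing or split.

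Genes were named by Ensembl ID from GENCODE's GRCh37 annotation (55665 of 63677, and 181 of 182 listed genes). Counts were tested in edgeR 4.0.16 (R 4.3.3): TMM, filterByExpr (minimum count 10), robust two-sided quasi-likelihood test, group as only term, adjustment over the 19142 genes kept. The spread is estimated from 2 residual degrees of freedom and shared across genes (biological coefficient of variation 5.38%), so p-values measure the spread between these libraries. Replicates differed beyond counting noise. The procedure was run on counts simulated with the same spread for all genes and both groups. That run does not vouch for the p-values given here. CPM and FPKM were computed from the counts.

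Values are given in each library for up to 5 called members per role, and for the 2 most abundant per exon length. Up to 4 called genes are named from each other list. Some genes under this rule are counted but not reported here by name. Members, lists and alternatives were chosen with earlier results of these data known. Alternatives were DESeq2 1.42.0, limma-voom (3.58.1), other size factors and filters, small RNAs or chromosome 5 left out, a replicate block, glmTreat at 0.5, a GC and length correction (mgcv 1.9.3) and each library left out. A crossed pairing was added after seeing the data.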

Additional observations from a re-analysis of the deposited data

How the results depend on the processing

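The 13 called members kept their direction in all 203 values under the alternatives. Their groups did not overlap, so leaving out a library could hardly reverse a direction. Of these values, 51 no longer passed 0.05, and 13 of the 51 were under glmTreat, which tests against 0.5. DAD1 kept its call in 15 of 15 alternatives other than glmTreat, and SRP19 in 14 of 14 (it is absent without chromosome 5). The median log2 fold change of the members ran from 0.05 to 0.07. Against a log2 fold change of 0.5 (glmTreat), 0 members were higher and 0 lower, as were 0 and 0 of the other pathway genes, and 155 and 126 of all genes. With no low-count filter 7 of the 55 members were higher, beside 1795 of all 32842 genes then tested (5.47%). Without chromosome 5 it was 6 of 50, beside 9.55% of 18242 genes.

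The replicate numbers pair the libraries by number only: over 12400 genes and 2 pairs, the deviations of same-numbered libraries had a correlation of -0.30. With the replicate block, 6 members were higher and 1 lower, 4 and 3 other pathway genes, and 1291 of all genes higher. Under the crossed pairing, chosen after seeing the data, 15 members were higher and 6 lower, beside 2871 and 2857 of all 19142 genes, and 17 other pathway genes were higher. With the GC and length correction 15 members were higher and 4 lower, beside 3030 and 2845 of all 19142 genes, and 17 other pathway genes were higher and 12 lower. The cause was not tested for any of these.

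Leaving out 1 library at a time, members called higher ran from 2 to 11 and lower from 1 to 2. Other pathway genes ran from 4 to 12 higher and from 3 to 6 lower, and all genes from 1029 to 1899 higher and from 1070 to 1822 lower. With 1 library left in an arm, it is assumed to vary like the other group. Depth limits low genes most: KDELR3, at 66 to 80 fragments a library, had a log2 fold change of 0.29 with an SE of 0.21 and was not called.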
